A study of Homo sapiens with 12 samples.

Results

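The chemokine genes CXCL1, CXCL2, CXCL3, CXCL5, CXCL8, CCL2, CCL20, CCL28, CXCL16 and CX3CL1 were followed in detached lung adenocarcinoma cells. They were taken from the deposited expression table by exact gene name, which gave 10 of the 60715 genes listed. RNA had been sequenced from HCC4006, NCI-H2228, LC-2/ad and NCI-H2009, which are 4 established lines of human lung adenocarcinoma. Every one of them was sampled in 3 states: attached in ordinary culture as the control, detached for 1 day, and detached for 7 days. Detached cells had been lifted with trypsin and kept on ultra-low attachment plates, in which cells cannot anchor to plastic. Every line was grown in RPMI-1640 with serum, and no drug or genetic change was applied. There was 1 library per line and state, 12 in all, so the 4 lines were the replicates of a state. Detachment, the trypsin step and the time in culture cannot be told apart in this design.

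Chemokines are small secreted or membrane-tethered proteins that guide leukocytes along concentration gradients by engaging G protein-coupled receptors. Epithelial cells of the airway make many of them in response to cytokines and microbial products, largely through NF-kappaB, a family of transcription factors held in the cytoplasm by inhibitory proteins until a signal degrades the inhibitor. CXCL1, CXCL2, CXCL3, CXCL5 and CXCL8 attract neutrophils through CXCR2, and CXCL8 also through CXCR1. CCL2 attracts monocytes through CCR2, CCL20 attracts CCR6-bearing lymphocytes and dendritic cells, and CCL28 is a mucosal chemokine that binds CCR10 and CCR3. CXCL16 and CX3CL1 are made as membrane-anchored proteins that proteases release, and they bind CXCR6 and CX3CR1.

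The 5 neutrophil-attracting genes lie together on chromosome 4 of GRCh38, CXCL8 at 73740541 to 73743716, CXCL1 at 73869393 to 73871308, CXCL5 at 73995642 to 73998677, CXCL3 at 74036589 to 74038807 and CXCL2 at 74097040 to 74099196. CCL20 lies on chromosome 2 at 227805739 to 227817564, CCL28 on chromosome 5 at 43376645 to 43412391 and CX3CL1 on chromosome 16 at 57372477 to 57385044. Chromosome 17 carries both CXCL16, at 4733531 to 4739928, and CCL2, at 34255218 to 34257203. Promoter sequences were found for 7 of the 10 genes in a RefSeq table of GRCh38.p14. The stretches below are each the 120 bases before the RefSeq start of transcription. They are shown because the 5 clustered genes share 1 short sequence just upstream of their starts and CCL20 carries a related one. The stretch of CXCL3 is not printed. RefSeq starts can differ from the edges of the spans above. The CCL20 stretch lies inside its gene span, and those of CXCL8 and CXCL2 reach into theirs. Capitals mark the bases GGAATTTCC or, in CCL20, the match to the NF-kappaB consensus.
CXCL1 (chr4:73869273-73869392, plus strand): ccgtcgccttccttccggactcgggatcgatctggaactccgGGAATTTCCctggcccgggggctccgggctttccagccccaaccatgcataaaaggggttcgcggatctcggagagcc
CXCL2 (chr4:74099196-74099315, minus strand): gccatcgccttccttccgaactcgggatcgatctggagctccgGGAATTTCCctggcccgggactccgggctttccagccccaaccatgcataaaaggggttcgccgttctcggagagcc
CXCL5 (chr4:73998678-73998797, minus strand): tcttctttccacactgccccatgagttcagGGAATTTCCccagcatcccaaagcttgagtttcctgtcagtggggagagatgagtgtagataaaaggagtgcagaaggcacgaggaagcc
CXCL8 (chr4:73740449-73740568, plus strand): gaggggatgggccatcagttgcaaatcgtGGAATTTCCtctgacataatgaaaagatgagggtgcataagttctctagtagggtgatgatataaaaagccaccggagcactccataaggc
CCL20 (chr2:227813722-227813841, plus strand): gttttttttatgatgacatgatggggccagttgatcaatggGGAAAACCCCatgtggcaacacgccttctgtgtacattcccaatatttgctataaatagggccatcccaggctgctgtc

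GGAATTTCC, searched on both strands of the 250 bases before each start, was present in CXCL1, CXCL2, CXCL3, CXCL5 and CXCL8, 5 of the 7 members in the table. Of all 35116 promoters, 145 (0.413%) held it. The sequence was chosen beforehand as the core of many NF-kappaB sites of chemokine genes, so its presence in these members is not an independent finding. Its first base lay 78 bases before the start in CXCL1 and CXCL3, 77 in CXCL2, 90 in CXCL5 and 91 in CXCL8. The longer NF-kappaB consensus, a degenerate motif, matched CXCL1, CXCL2, CXCL3, CXCL5 and CCL20, against 9.96% of all promoters. In the first 4 of these it overlapped GGAATTTCC. TGANTCA, the site of AP-1 factors, was present in CXCL8 (6.57% of all promoters), and TTGCNNAA, bound by C/EBP factors, in CXCL2 (9.05%). The proximal promoters of CXCL1, CXCL2 and CXCL3 were themselves alike, with 94.2% of the 120 bases identical between CXCL1 and CXCL2, 90.8% between CXCL1 and CXCL3 and 89.2% between CXCL2 and CXCL3. Their shared motif therefore does not count as 3 independent occurrences.

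The libraries held 31134420 to 41882024 estimated counts. Levels are given as TPM, a transcript abundance scaled by gene length, which allows genes to be compared within a library. Epithelial markers were abundant in every library. Summed over 6 of them, TPM was 5196 to 16995 in attached, 3815 to 13057 in day 1 and 3581 to 19735 in day 7 libraries. Summed over 4 lung lineage markers, TPM was 31.6 to 140 in attached, 49.5 to 276 in day 1 and 87.0 to 786 in day 7 libraries. In LC-2/ad, 1 of these 4 was at 0 while attached, and 1 was at 0 at day 1. NKX2-1, a lung lineage factor among the 4, was at 26.5 to 107 TPM. Of 9 leukocyte markers, TYROBP was at 0 in all 12 libraries, CD3E at no more than 0.14 TPM and PTPRC at no more than 0.834 TPM. Their summed TPM was 6.76 to 39.8 in attached, 34.2 to 87.9 in day 1 and 18.9 to 120 in day 7 libraries. CD14 or CD68 was the largest part except in attached NCI-H2009, where CSF1R (3.17 TPM) was. The 4 endothelial markers summed to 0.445 to 2.46 TPM while attached, 1.41 to 4.56 at day 1 and 2.65 to 13.2 at day 7. In the edgeR fit described below, the 6 leukocyte markers tested had median log2 changes of 1.72 at day 1 and 0.89 at day 7. The 3 endothelial markers tested had 1.44 and 3.48, beside 0.01 and 0.03 for all genes. No marker of either list passed the adjusted threshold of 0.05. In bulk RNA of this kind, fewer cells making a transcript and less transcript per cell cannot be told apart.

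The level and the make-up of the 10 transcripts differed by line. Their summed level was 866, 1182 and 396 TPM in NCI-H2228 (attached, day 1 and day 7) and 833, 498 and 885 TPM in HCC4006. In NCI-H2009 the sum was 27.5, 74.6 and 232 TPM, and in LC-2/ad it was 72.2, 82.8 and 154 TPM. NCI-H2009 and LC-2/ad thus stood lower than the other lines in every state, and their sums were highest at day 7. The leading transcript also differed by line. CXCL16 led in all libraries of NCI-H2009 and LC-2/ad, with 53.1 to 61.7% and 67.7 to 84.3% of the sum. CCL2 led in all 3 libraries of HCC4006, with 52.4 to 73.6%. In NCI-H2228 the leader was CXCL8 while attached, CXCL1 at day 1 and CXCL8 again at day 7. The 5 clustered genes made up 65.7, 65.5 and 81.4% of the sum in NCI-H2228, 4.91, 9.54 and 26.2% in NCI-H2009, 2.87, 3.71 and 13.2% in LC-2/ad, and 2.56, 2.76 and 1.87% in HCC4006.

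**Figure D1:**
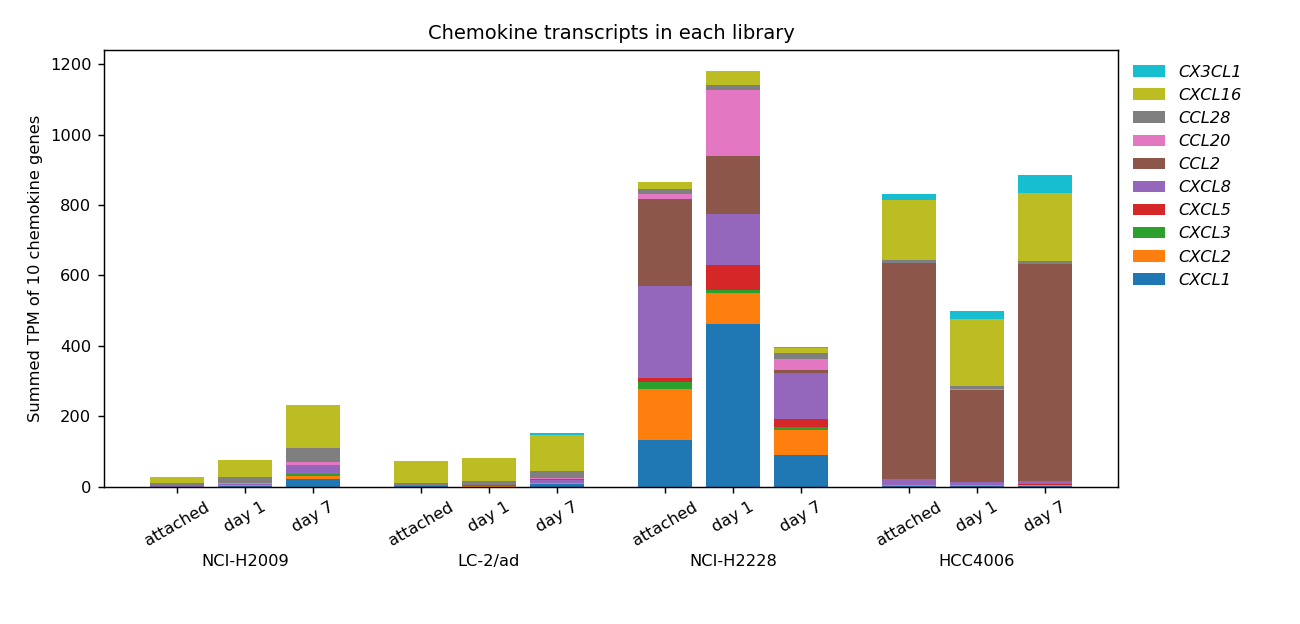
Summed TPM of the 10 chemokine genes in each library (vertical axis, linear, from 0), with 1 stacked bar per line and state and 1 colour per gene. The NCI-H2228 bars reach 866, 1182 and 396 TPM and hold mostly CXCL1, CXCL2, CXCL8, CCL2 and CCL20, while CCL2 and CXCL16 fill the HCC4006 bars.

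CXCL8, the prototype of the neutrophil-attracting chemokines, was at 260, 144 and 128 TPM in NCI-H2228 (attached, day 1 and day 7). It was at 0.875, 1.80 and 24.1 TPM in NCI-H2009 and at 0.29, 0.835 and 8.56 TPM in LC-2/ad. HCC4006 held 16.8, 8.54 and 10.1 TPM. NCI-H2228 was above all other libraries in each state, and the distance to NCI-H2009 and LC-2/ad was narrowest at day 7. In counts scaled to the library total, CXCL8 at day 7 against attached was 25.7-fold higher in NCI-H2009 (95% interval 16.5 to 42.5) and 27.1-fold higher in LC-2/ad (14.0 to 59.9). At the same time point it was 2.01-fold lower in NCI-H2228 (1.93 to 2.10) and 1.49-fold lower in HCC4006 (1.28 to 1.73). These intervals, exact conditional binomial ones, and those given below cover counting error only, because no line was repeated within a state. Folds with an interval, here and below, compare counts scaled to the library total. They differ from ratios of the TPM values printed, in some cases by more than the interval. Between day 1 and day 7 the 2 low lines again differed widely, 10.2-fold higher in NCI-H2009 (7.81 to 13.4) and 8.59-fold higher in LC-2/ad (5.63 to 13.7). The same pair of states in NCI-H2228 differed by 1.07-fold, lower at day 7 (1.02 to 1.13).

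CXCL1, another CXCR2 ligand, reached the highest level of any of the 5 clustered genes. In NCI-H2228 it was at 133, 462 and 89.2 TPM, in NCI-H2009 at 0, 1.25 and 22.6 TPM, in LC-2/ad at 0.746, 0.575 and 7.12 TPM, and in HCC4006 at 1.15, 0.635 and 1.35 TPM. Every NCI-H2228 value was above every value of the other lines. Its day 1 level in NCI-H2228 was 3.51-fold above attached (3.36 to 3.65), and day 7 was 1.47-fold below attached (1.39 to 1.55). In NCI-H2009 the attached library had no CXCL1 count, and day 7 was at least 144-fold higher when set against 3 counts. LC-2/ad was 8.66-fold higher at day 7 than attached (5.36 to 14.8), and HCC4006 differed by 1.23-fold, with an interval that includes no change (0.712 to 2.14).

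CXCL2, a close relative of CXCL1, was at 145, 86.9 and 70.9 TPM in NCI-H2228 and at 0.148, 3.31 and 9.18 TPM in NCI-H2009. LC-2/ad held 0.623, 1.00 and 3.47 TPM of it, and HCC4006 2.84, 2.90 and 3.995 TPM. As for CXCL8, the NCI-H2228 level was highest while attached, and the NCI-H2009 and LC-2/ad levels were highest at day 7. At day 7 CXCL2 was 50.2-fold above attached in NCI-H2009 (16.9 to 246, from 3 attached counts), 4.91-fold above in LC-2/ad (2.73 to 9.46) and 2.08-fold below in NCI-H2228 (1.94 to 2.23). CXCL3, the third gene of this closely related trio, was at 19.1, 10.9 and 10.3 TPM in NCI-H2228, at 0.325, 0.757 and 4.73 TPM in NCI-H2009, at 0.317, 0.663 and 0.977 TPM in LC-2/ad and at 0.048, 1.28 and 0.653 TPM in HCC4006. It was the lowest of the trio in NCI-H2228 in every state. Day 7 stood 9.94-fold above attached in NCI-H2009 (4.82 to 23.8) and 1.87-fold below in NCI-H2228 (1.56 to 2.23). The longest coding transcripts of CXCL1 and CXCL2 in GENCODE release 29 shared 90.5% of aligned bases, those of CXCL2 and CXCL3 83.3% and those of CXCL1 and CXCL3 81.7%, with identical runs of up to 97 bases. The split of reads between them is uncertain, since no source used here says how such stretches were counted.

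CXCL5, an epithelial CXCR2 ligand, was high in 1 line. NCI-H2228 held 12.9, 69.6 and 23.4 TPM, and the other 9 libraries held no more than 0.513 TPM. In NCI-H2009 it was at 0, 0 and 0.073 TPM, in LC-2/ad at 0.095, 0 and 0.188 TPM, and in HCC4006 at 0.513, 0.412 and 0.472 TPM. Day 1 in NCI-H2228 was 5.23-fold above attached (4.79 to 5.72), and day 7 was 1.81-fold above (1.63 to 2.0). CXCL6, a neighbouring ligand, was the only one aligned with CXCL5, and 81.2% of aligned transcript bases were identical. CXCL6 was at 7.40, 48.4 and 4.19 TPM in NCI-H2228, so part of either value may belong to the other gene. CXCL5 also overlaps a lncRNA on the opposite strand, AC097709.1, which stayed at or below 0.657 TPM.

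In NCI-H2228 the clustered genes therefore did not keep a fixed ratio between states. From attached to day 1, CXCL1 and CXCL5 were higher while CXCL8, CXCL2 and CXCL3 were lower, by 1.87-fold (1.79 to 1.95), 1.66-fold (1.56 to 1.77) and 1.75-fold (1.47 to 2.09). CXCL8 was at 1.96 times the CXCL1 level while attached, at 0.312 times at day 1 and at 1.44 times at day 7. These are single libraries, and no repeat of that line was analysed here.

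**Figure D2:**
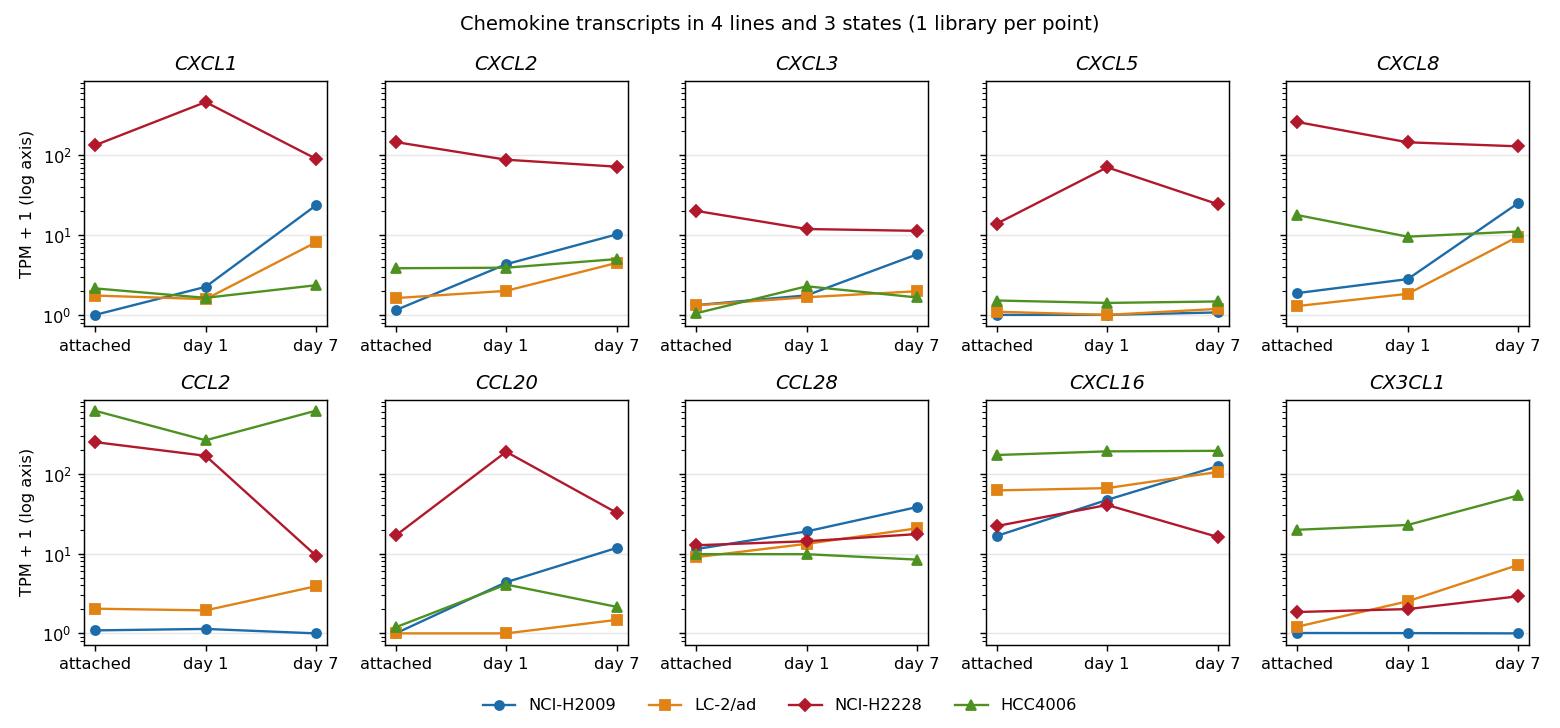
TPM plus 1 on a logarithmic axis for each of the 10 chemokine genes (panels) in attached, day 1 and day 7 libraries, with 1 point per library and lines joining the libraries of a cell line. NCI-H2228 lies above the other lines in all 3 states for CXCL1, CXCL2, CXCL3, CXCL5, CXCL8 and CCL20, and HCC4006 for CCL2, CXCL16 and CX3CL1.

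CCL2, the monocyte attractant, separated the 4 lines completely. HCC4006 held 613, 261 and 615 TPM, and NCI-H2228 held 248, 167 and 8.41 TPM. LC-2/ad was at 1.04, 0.941 and 2.90 TPM, and NCI-H2009 at 0.09, 0.137 and 0 TPM, which was no more than 2 counts in a library. The ranges of the lines over the 3 states did not overlap, in the order HCC4006, NCI-H2228, LC-2/ad, NCI-H2009. The share of all genes with such separate ranges was not computed, so this is not shown to be particular to CCL2. The 2 lines with the highest levels differed at day 7, when NCI-H2228 was 28.97-fold below its attached level (23.5 to 36.1) and HCC4006 was at 1.05 times its own (1.02 to 1.09). LC-2/ad, at 13 attached and 33 day 7 counts, was 2.64-fold higher (1.35 to 5.47). At day 1 HCC4006 had been 2.25-fold below attached (2.15 to 2.35) and NCI-H2228 1.48-fold below (1.40 to 1.58). The summed TPM of 6 fibroblast markers in NCI-H2228 moved the same way, at 377, 184 and 46.0, through COL1A1 (347, 150 and 39.2 TPM) and FAP (29.2, 33.6 and 5.88 TPM). COL1A2 was at no more than 0.085 TPM and PDGFRA at no more than 0.437 TPM in those libraries, and the part of these genes in the CCL2 values was not tested.

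CCL20, which draws CCR6-bearing lymphocytes and dendritic cells, was at 15.9, 187 and 31.5 TPM in NCI-H2228. In NCI-H2009 it was at 0, 3.37 and 10.7 TPM, in HCC4006 at 0.193, 3.09 and 1.15 TPM, and in LC-2/ad at 0, 0 and 0.476 TPM. NCI-H2228 was again above every other library, and 3 of 4 lines were higher at day 1 than attached, with LC-2/ad at 0 in both. Day 1 was 11.7-fold above attached in NCI-H2228 (10.0 to 13.6) and 21.5-fold above in HCC4006 (5.54 to 184, from 2 attached counts). In NCI-H2009, which had no attached count, it was at least 14.2-fold higher at day 1 and at least 36.2-fold higher at day 7. By day 7 NCI-H2228 was 5.75-fold below day 1 (5.15 to 6.43), at 2.03 times its attached level (1.70 to 2.43).

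CCL28, a chemokine of mucosal epithelia, was expressed at like levels in all 4 lines. It was at 10.4, 17.9 and 37.2 TPM in NCI-H2009, at 8.02, 12.2 and 19.7 TPM in LC-2/ad, at 11.7, 13.3 and 16.5 TPM in NCI-H2228 and at 8.83, 8.81 and 7.39 TPM in HCC4006. The attached lines lay within 8.02 to 11.7 TPM of each other and spread to 7.39 to 37.2 TPM at day 7. Day 7 was 3.32-fold above attached in NCI-H2009 (2.97 to 3.73), 2.53-fold in LC-2/ad (2.22 to 2.89) and 1.42-fold in NCI-H2228 (1.25 to 1.62). In HCC4006 the ratio was 0.91, with an interval that includes no change (0.772 to 1.07).

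CXCL16, a transmembrane ligand of CXCR6, was at 171, 190 and 193 TPM in HCC4006, above every library of the other lines. LC-2/ad held 60.8, 65.0 and 104 TPM, NCI-H2009 15.6, 46.0 and 123 TPM, and NCI-H2228 21.1, 39.6 and 15.2 TPM. The range of NCI-H2009 overlapped those of LC-2/ad and NCI-H2228. All 4 lines were higher at day 1 than attached, by 2.90-fold in NCI-H2009 (2.69 to 3.13), 1.89-fold in NCI-H2228 (1.76 to 2.03), 1.17-fold in LC-2/ad (1.12 to 1.23) and 1.17-fold in HCC4006 (1.14 to 1.21). At day 7 NCI-H2009 was 6.19-fold above attached (5.77 to 6.65), while NCI-H2228 was 1.41-fold below (1.29 to 1.55). CXCL16 shares part of its locus with MED11 on the opposite strand, which was at 15.1 to 59.9 TPM, and the use of strand in counting is not stated in the sources used here.

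CX3CL1, the other membrane-anchored chemokine, was at 18.8, 21.8 and 52.4 TPM in HCC4006. LC-2/ad held 0.212, 1.52 and 6.18 TPM, and NCI-H2228 0.852, 1.01 and 1.91 TPM. NCI-H2009 had no more than 1 count in any state. HCC4006 was above the other lines throughout, the ranges of LC-2/ad and NCI-H2228 overlapped, and the 3 lines that expressed the gene each had their highest level at day 7. That level was 27.2-fold above attached in LC-2/ad (17.8 to 43.8), 2.88-fold in HCC4006 (2.73 to 3.04) and 2.24-fold in NCI-H2228 (1.70 to 2.97).

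Changes shared by the lines were tested with edgeR's quasi-likelihood test over all 17395 genes that passed the filter on low counts, with cell line as a block and Benjamini-Hochberg adjustment. All 10 chemokine genes passed the filter. At day 1 against attached, 0 of 10 were called at an adjusted p under 0.05, against 0.489% of all genes. At day 7 against attached it was again 0 of 10 (background 0.103%), and at day 7 against day 1 0 of 10 (background 0%). DESeq2 on the same genes called 1 of 10 at day 1 (11.4% of all genes with an adjusted value), 3 of 10 at day 7 (7.56%) and 0 of 10 between the detached states (1.18%). By unadjusted p under 0.05 in edgeR, 1 of 10 passed at day 1, where 19.6% of all genes did, and 4 of 10 passed at day 7, where 15.7% did. Between day 7 and day 1 the count was 2 of 10 (9.78% of all genes). Higher in 4 of 4 lines were CXCL16 at day 1 (11.9% of all genes), CCL20 at day 7 (12.9%) and no member between day 1 and day 7 (13.2%). The day 1 and day 7 comparisons share their attached libraries and are not independent of each other.

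The largest estimate at day 1 was that of CCL20, a log2 change of 3.87 ± 0.99 (SE, n = 4 lines, edgeR adjusted p = 0.0941). DESeq2 gave 4.09 for it, with an adjusted p of 0.027. LC-2/ad had no CCL20 count in either state, and the attached libraries of NCI-H2009 and HCC4006 held 0 and 2 counts. The other edgeR estimates at day 1 ran from -0.51 ± 0.88 for CCL2 to 0.98 ± 1.13 for CXCL1. CXCL16, the member higher in all 4 lines, had an estimate of 0.75 ± 0.42 (edgeR adjusted p = 0.35). For CXCL8 the estimate was -0.23 ± 0.84, since it was higher in 2 lines and lower in the other 2. With NCI-H2228 left out, the CXCL5 estimate turned from 0.89 to -0.98 and that of CXCL8 from -0.23 to 0.33.

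At day 7 CCL20 stood at 3.63 ± 1.08 (edgeR adjusted p = 0.17), CXCL1 at 2.78 ± 1.23 (adjusted p = 0.31), CX3CL1 at 2.17 ± 0.61 (adjusted p = 0.162) and CCL28 at 0.88 ± 0.29 (adjusted p = 0.199). These are the 4 genes under an unadjusted p of 0.05. Attached counts of CCL20 were 0 in NCI-H2009 and LC-2/ad and 2 in HCC4006. NCI-H2009 had no more than 1 count of CX3CL1 in any state. The CCL20 estimate was 2.05 without NCI-H2009 and 5.81 without NCI-H2228. DESeq2 called 3 of the 4, CCL20 at 4.47 (adjusted p = 0.0191), CX3CL1 at 2.05 (adjusted p = 0.0227) and CCL28 at 0.88 (adjusted p = 0.0464). The edgeR estimates for CXCL8, CXCL3, CXCL2, CXCL16 and CXCL5 were 1.84 ± 0.97, 1.42 ± 0.80, 1.29 ± 0.77, 0.82 ± 0.43 and 0.76 ± 0.83. CCL2 alone was below 0, at -0.53 ± 0.97, and it turned to 0.48 without NCI-H2228. Leaving out NCI-H2228 also took CXCL8 to 3.02 and CXCL2 to 2.31, and leaving out NCI-H2009 took CXCL1 to 1.33, CXCL8 to 0.67 and CXCL2 to 0.49. No member was called in any of these edgeR fits with a line left out.

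Between day 1 and day 7, CXCL8 had the largest estimate, 2.07 ± 0.90 (edgeR adjusted p = 0.503), followed by CXCL1 at 1.80 ± 1.20 and CX3CL1 at 1.37 ± 0.57 (adjusted p = 0.502 for CX3CL1). CCL20, CXCL5 and CCL2 were at -0.24 ± 0.98, -0.12 ± 0.88 and -0.02 ± 1.06. For these last 3 genes the changes in NCI-H2228 were -2.53, -1.53 and -4.15 on the log2(TPM + 1) scale, and those of the other lines lay between -0.93 and 1.42. Fold changes on that scale understate the change of low genes.

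**Figure D3:**
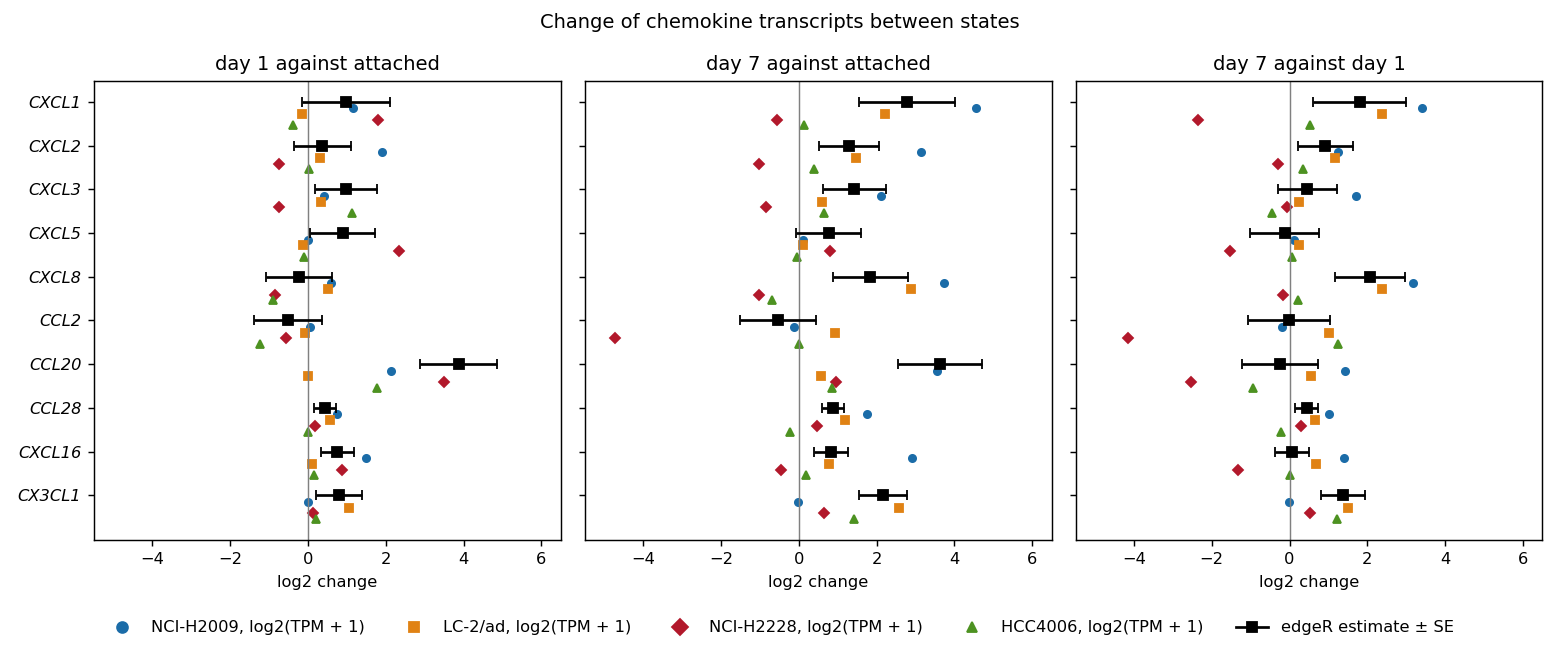
Log2 change of each chemokine gene (rows) in the 3 comparisons (panels), with the edgeR estimate ± SE as a black square and the log2(TPM + 1) change of each line as a coloured point. NCI-H2009 and LC-2/ad lie to the right of 0 and NCI-H2228 to the left for CXCL1, CXCL2, CXCL3 and CXCL8 at day 7 against attached.

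How the members moved together was described over the 12 libraries on the log2(TPM + 1) scale. As measured, CXCL1, CXCL2, CXCL3, CXCL5, CXCL8 and CCL20 correlated with each other at r of 0.83 to 0.96, with NCI-H2228 high in all of them. With each line's mean subtracted, r was 0.87 between CXCL8 and CXCL2, 0.85 between CXCL8 and CXCL1 and 0.81 between CXCL1 and CXCL2. For CXCL5 the Pearson r was -0.04 with CXCL8, -0.09 with CXCL2, -0.20 with CXCL3, 0.42 with CXCL1 and 0.68 with CCL20. By Spearman's rho the same 5 values were 0.385, 0.277, 0.007, 0.753 and 0.586, so its place depends on the measure. CXCL1 was closest to CXCL16 (0.94). Libraries of 1 line share their culture origin and the trio is alike in sequence, so these are descriptions.

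Among 11804 protein-coding genes, up to 3 with the pattern most like each member’s were listed in the same way, with the line mean subtracted. CXCL8 was followed by DNASE1 (r = 0.994), GSDMD and SYTL1, CXCL1 by TRAM1L1 (0.982), PDP1 and PAM, CXCL2 by RMND5B (0.983), ABHD12 and UCP2, CXCL3 by PCP4L1 (0.943), ZNF79 and ZNF256, and CXCL5 by VNN1 (0.980), AMPH and ORM1. CCL2 was followed by TFF2 (0.956), MELTF and SYCE1, CCL20 by ABRACL (0.967), PCDHA10 and ERLEC1, CCL28 by FAM98C (0.987) and SLC26A11, CXCL16 by SLC35B2 (0.986), PLXNB2 and S1PR4, and CX3CL1 by SIAE (0.928), LRATD1 and PCDHGA10. With a pseudocount of 0.1 in place of 1, 3 of the 10 members had the same gene in first place. As measured, without subtraction, the genes most like CXCL1 were TNIP3 (0.982), CHI3L1 and SGPP2, those most like CXCL5 were IRX6 (0.996), HP and CXCL14, and CXCL6 was second for CCL20 (0.951).

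The remaining chemokine ligands were mostly silent. Of 36 others in the table, 26 were under 1 TPM in every library and 14 of these were at 0 throughout. The 6 that could be tested had a median log2 change of 1.51 at day 1, 1.77 at day 7 and -0.06 between the detached states, beside 0.01, 0.03 and 0.02 for all genes, and none passed the adjusted threshold. CXCL17, a mucosal chemokine, was at 113, 321 and 956 TPM in HCC4006 and at 68.4, 191 and 108 TPM in LC-2/ad. NCI-H2228 held 0.992, 15.1 and 0.413 TPM of it and NCI-H2009 0, 1.04 and 1.47 TPM. The CXCL17 estimate over all 4 lines was 2.65 ± 0.90 at day 1 (edgeR adjusted p = 0.157). CCL26, an eosinophil attractant, had an estimate of -3.58 ± 1.05 at day 7 (edgeR adjusted p = 0.167), and CCL22 one of 3.52 ± 1.11 (adjusted p = 0.187), from levels of at most 3.98 and 1.55 TPM in the libraries compared. CXCL6 was at 2.73 ± 1.16 at day 7 (adjusted p = 0.298).

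The receptors named above for the 10 ligands were low in the cancer cells themselves, at no more than 1.63 TPM. CXCR1 and CCR6 were at 0 in all 12 libraries, CXCR2 reached 0.613 TPM, CCR2 0.121 TPM, CXCR6 0.621 TPM, CX3CR1 0.645 TPM and CCR10 0.928 TPM. CCR3 was at 0.631, 1.63 and 0.854 TPM in NCI-H2009 and did not exceed 0.113 TPM elsewhere. Of 23 receptors listed, 5 reached 1 TPM in a library. Among them were 2 scavenging receptors, ACKR3 in NCI-H2228 (18.6, 14.7 and 42.4 TPM) and ACKR2, which takes up inflammatory CC chemokines, in NCI-H2009 (5.29, 4.28 and 14.7 TPM). CCRL2, an atypical receptor that signals little, came nearest to the threshold, with 1.60 ± 0.30 at day 1 (edgeR adjusted p = 0.0555), 0.95 ± 0.30 at day 7 (adjusted p = 0.183) and -0.65 ± 0.29 between the detached states (adjusted p = 0.508). It was higher at day 1 than attached in all 4 lines, at 1.09 and 4.33 TPM in NCI-H2009, 5.85 and 12.8 TPM in LC-2/ad, 2.71 and 11.2 TPM in NCI-H2228 and 15.3 and 24.7 TPM in HCC4006.

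All 16 NF-kappaB subunits, kinases and inhibitors on the list were expressed and tested, and none passed the adjusted threshold. Their median log2 change was 0.28 at day 1, 0.20 at day 7 and 0.13 between the detached states, and by unadjusted p under 0.05 there were 3 higher, 2 higher and 2 lower genes, near the shares of all genes (19.6, 15.7 and 9.78%). NFKBIA, the inhibitor that NF-kappaB itself induces, had 1.10 ± 0.31 at day 1 (edgeR adjusted p = 0.112) and 1.01 ± 0.31 at day 7 (adjusted p = 0.179). In TPM it was at 87.5, 279 and 425 in NCI-H2009, 154, 198 and 313 in LC-2/ad, 147, 370 and 183 in NCI-H2228 and 137, 188 and 219 in HCC4006. Its highest state was day 1 in NCI-H2228 and day 7 in the other 3 lines. In NCI-H2228, CXCL1, CXCL5, CCL20 and CXCL16 were also highest at day 1, whereas CXCL8, CXCL2, CXCL3 and CCL2 were highest while attached and CCL28 and CX3CL1 at day 7. RELB had 0.84 ± 0.33 at day 1 (adjusted p = 0.206), and NFKB2 had 0.73 ± 0.30 at day 1 (adjusted p = 0.214) and -0.74 ± 0.29 between the detached states (adjusted p = 0.492).

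The 12 other NF-kappaB targets had medians of 0.50, 0.71 and -0.11 in the 3 comparisons, with 3, 2 and 0 genes under an unadjusted p of 0.05 (19.6, 15.7 and 9.78% of all genes) and none past the adjusted threshold. LCN2, an iron-sequestering secreted protein, had 1.75 ± 0.60 at day 1 (edgeR adjusted p = 0.16) and 2.73 ± 0.63 at day 7 (adjusted p = 0.128). ICAM1, an adhesion molecule for leukocytes, had 1.48 ± 0.56 at day 1 (adjusted p = 0.186). SOD2, a mitochondrial superoxide dismutase, went from 211 to 2250 and then 498 TPM in NCI-H2228, where the other lines stayed at 41.7 to 103 TPM in every state. In that line SOD2 and CXCL1 were thus both highest at day 1, as were ICAM1, BIRC3, TNFAIP2, IL32, LCN2 and PTGS2 of the list. IER3, IRAK2, SDC4, TRAF1 and CD83 were lower there at day 1 than attached, as were CXCL8, CXCL2 and CXCL3.

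**Figure D4:**
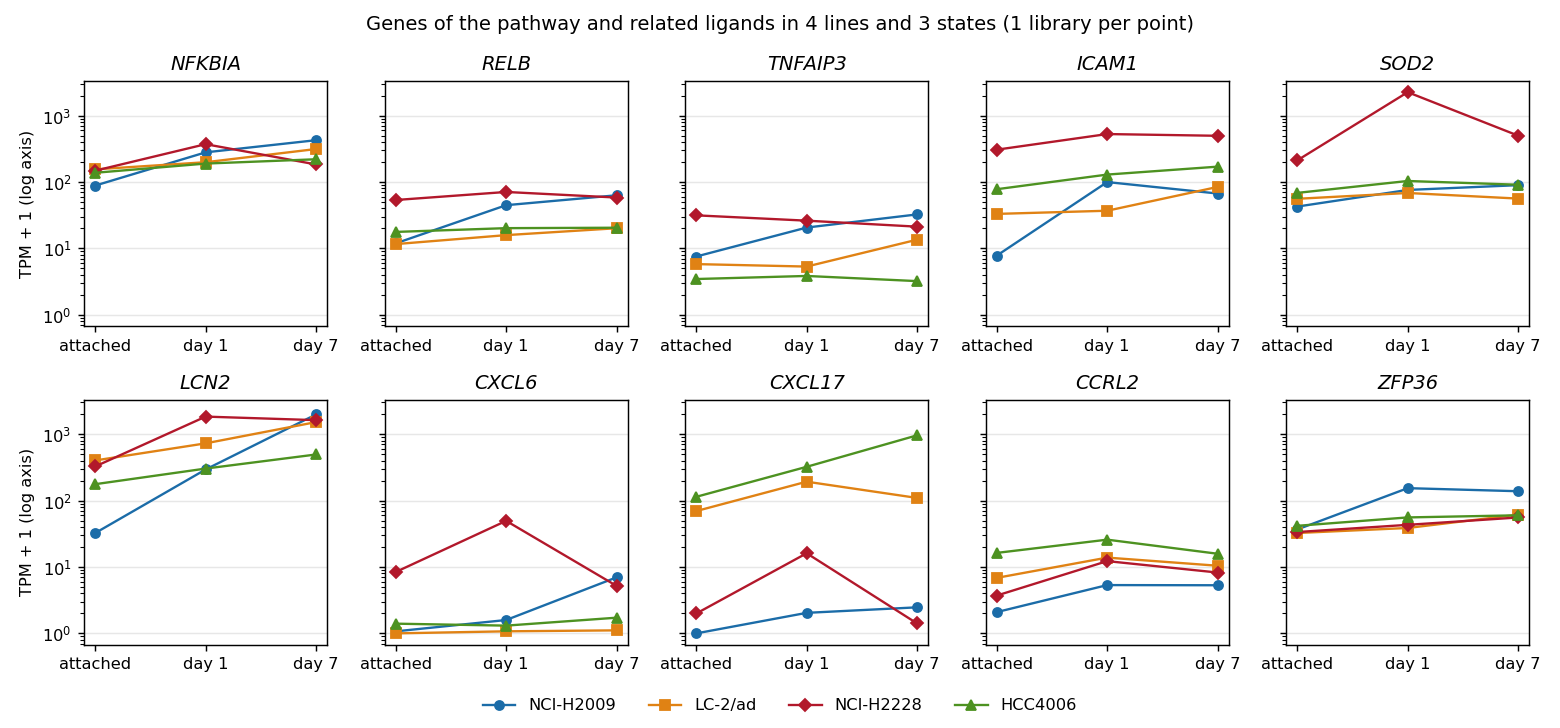
TPM plus 1 on a logarithmic axis for 10 genes of the NF-kappaB pathway, related ligands and regulators (panels) in attached, day 1 and day 7 libraries, with 1 point per library. NFKBIA is highest at day 1 in NCI-H2228 and at day 7 in the other lines, and SOD2 at day 1 in NCI-H2228 stands at 2250 TPM.

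Of the cytokines that can induce chemokines, none of the 12 tested passed the adjusted threshold, and the medians were 0.73, 0.48 and -0.02. IL18 was present in all 12 libraries, at 2.49 to 44.4 TPM, and LIF at 1.94 to 8.78 TPM. IL6 was at 46.6, 86.1 and 32.5 TPM in NCI-H2228 and at no more than 5.87 TPM elsewhere. In NCI-H2009 at day 7, IL17C, an epithelial cytokine that acts back on epithelium, was at 12.5 TPM and IL1B at 9.63 TPM, from 0.14 and 0 TPM while attached. TNF reached 0.222 TPM at most. The smallest p at day 1 was that of IL36G, at 5.03 ± 1.53 (edgeR adjusted p = 0.141) from levels of at most 0.999 TPM. At day 7 IL18 had -1.18 ± 0.43 (adjusted p = 0.233) and TNFSF10 2.23 ± 0.94 (adjusted p = 0.294). Of the 14 receptors tested for such cytokines (medians 0.18, 0.42 and 0.30), IL1R1 had 1.69 ± 0.57 at day 7 (adjusted p = 0.207) and TLR2, which senses bacterial lipoproteins, 1.62 ± 0.60 (adjusted p = 0.242). TLR2 was at 84.6 TPM in NCI-H2228 at day 1, from 11.7 TPM while attached.

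The 9 proteases tested that shed or trim chemokines had medians of 0.85, 0.00 and -0.16. ADAM10 and ADAM17, which release CXCL16 and CX3CL1 from the membrane, were expressed in all libraries, at 24.4 to 124 and 8.51 to 27.5 TPM. The smallest p values on the list were those of CTSB, at 1.06 ± 0.26 at day 1 (edgeR adjusted p = 0.0834) and 1.05 ± 0.26 at day 7 (adjusted p = 0.134), and of MMP7, at 2.19 ± 0.64 at day 1 (adjusted p = 0.116) and -2.19 ± 0.69 between the detached states (adjusted p = 0.48). The 10 regulators of chemokine mRNA decay had medians of -0.15, -0.15 and -0.06, with genes on both sides of 0. By unadjusted edgeR p under 0.05, 2 were higher and 2 lower at day 1, where 19.6% of all genes passed. At day 7 it was 2 higher and 3 lower (15.7% of all genes), and between the detached states 0 (9.78%). HNRNPD, an AU-rich element binding protein, had -0.66 ± 0.15 at day 1 (adjusted p = 0.0755), and KHSRP had -0.86 ± 0.21 at day 7 (adjusted p = 0.134). ZFP36, which promotes decay of such transcripts, had 0.94 ± 0.32 at day 1 (adjusted p = 0.157), with NCI-H2009 at 35.7, 152 and 137 TPM. No gene of these 8 lists passed the adjusted threshold in any of the 3 comparisons.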

How the data were processed

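RNA was sequenced from 4 lung adenocarcinoma cell lines in 3 states, with 1 library per line and state. Per the labels' protocols, total RNA was purified on columns and turned into libraries with SMART-Seq v4 PLUS. The submitters' processing notes name the build GRCh38. Which aligner, quantifier and annotation release were used, and whether strand was, is not given in the sources used here. Per the file headers, the deposited table holds TPM and an estimated count for each gene and library. The authors' estimated counts carry no normalization, and 31.5% of those above 0 are fractional.

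Rounded estimated counts entered edgeR 4.0.16 under R 4.3.3 (TMM factors, filterByExpr by state, robust quasi-likelihood fit of state and cell line over 12 libraries, Benjamini-Hochberg adjustment over 17395 genes, threshold 0.05). The biological coefficient of variation was 38.7%. Libraries pair by shared cell line: deviations from the state mean correlated at 0.72 to 0.82 within lines and at no more than -0.09 between lines. Subtracting the state mean by itself makes the correlations between lines negative on average. Folds within a line compare CPM, with 3 counts standing in for 0 and 95% intervals. Nothing says that libraries came from separate cultures, and intervals and floors cover counting error only. Alternatives were DESeq2 1.42.0, limma 3.58.1 on log2(TPM + 1) or log2(TPM + 0.1), other scaling, filters and models, and leaving out lines or single libraries. The fitting procedure was tested on simulated data.

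The members and lists were chosen with earlier results of these data known. Named were all members, of each list every gene past the threshold or otherwise those with the smallest p, and the 3 genes most alike in pattern; other members of a list are given for their level and were chosen after their values were seen. A planned comparison of protein sequences was not made, and 1 gene alike in pattern is not reported here. Motif searches and alignments used Python 3.11.15 and biopython 1.88.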

Additional observations from a re-analysis of the deposited data

Results flagged for a closer look

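In 20 of 30 sets of 4 libraries (1 gene in 1 state) the highest library stood apart from the other 3 by Dixon's test on TPM. The test flags about 1 in 20 sets by chance only where values are normally distributed. TPM without logarithms need not be so, and the 30 sets share the same lines. The share of all genes flagged was not computed, so the count of 20 is a description. The library that stood apart was NCI-H2228 in 15 and HCC4006 in 5. NCI-H2228 stood apart while attached for CXCL1 (133 TPM), CXCL2 (145 TPM), CXCL3 (19.1 TPM), CXCL5 (12.9 TPM), CXCL8 (260 TPM) and CCL20 (15.9 TPM). At day 1 it stood apart for the same 6 genes, at 462 TPM for CXCL1, 86.9 TPM for CXCL2, 10.9 TPM for CXCL3, 69.6 TPM for CXCL5, 144 TPM for CXCL8 and 187 TPM for CCL20. At day 7 it did so for CXCL2 (70.9 TPM), CXCL5 (23.4 TPM) and CXCL8 (128 TPM). HCC4006 stood apart for CX3CL1 at 18.8, 21.8 and 52.4 TPM in the 3 states, for CXCL16 at day 1 (190 TPM) and for CCL2 at day 7 (615 TPM).

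Most changes had lines on both sides of 0, and in 6 cases 1 line was higher and another lower by at least 1 on the log2(TPM + 1) scale. Between day 7 and attached, the log2(TPM + 1) change in NCI-H2009 exceeded that in NCI-H2228 by 4.17 for CXCL2 and 4.75 for CXCL8. Between day 7 and day 1 the same difference was 3.96 for CCL20, 5.75 for CXCL1 and 2.73 for CXCL16, and for CCL2 the change in HCC4006 exceeded that in NCI-H2228 by 5.39. With 1 library per line and state, these differences were not tested.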

How the results depend on the processing

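The count of members called stayed at 0 in all 3 comparisons under 23 of the 24 alternatives; DESeq2 called 1 at day 1 and 3 at day 7. Of 717 values of the members under the alternatives, 659 kept their direction and call, 54 reversed and 4 came past the threshold; 12 of the 30 member results never reversed. The cause was not tested in any case below. Under the filter on TPM, CXCL5 was not tested, so it has no value there. With another pseudocount, 3 of 10 members kept the same most alike gene.

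Genes called at day 1, 85 in the fit reported, were 1709 with DESeq2, 2 with RLE size factors, 265 with no filter, 0 with only the 2 states fitted, and 225 and 223 with limma at pseudocounts of 1 and 0.1. At day 7, 18 became 1162, 6, 114 and 1 under the first 4 of these and 29 under the filter on TPM. Between day 7 and day 1, 0 became 193 with DESeq2, 6 with no filter and 1 with limma at the pseudocount of 0.1. Leaving out 1 line or library gave 0 to 6 genes at day 1 and 0 to 69 at day 7.

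The replicate block is the cell line. Without the replicate block 0 genes were called in any comparison, and estimates turned for CXCL2 (-0.52) and CXCL3 (-0.42) at day 1, for CXCL1 (-0.19), CXCL2 (-0.78), CXCL3 (-0.32) and CXCL8 (-0.71) at day 7, and for CCL2 (0.55), CXCL1 (-2.12) and CXCL2 (-0.26) between day 7 and day 1. Fitting only 2 states turned CXCL8 at day 1 (0.16) and, between the detached states, CXCL5 (0.10) and CXCL16 (-0.0061). DESeq2 turned CCL20 (0.37) and CXCL5 (0.99) between the detached states, and limma at the pseudocount of 0.1 turned CCL20 (0.062) and CXCL5 (0.23) there and CXCL8 (0.10) at day 1.

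Leaving out 1 line or library moved the day 1 estimates from -1.56 to 0.38 for CCL2, -0.50 to 1.66 for CXCL1, -0.24 to 1.31 for CXCL2, -0.98 to 1.51 for CXCL5 and -0.71 to 0.59 for CXCL8. The day 7 estimate of CCL2 ran from -1.58 to 0.54. For CCL20 the ranges were 3.29 to 5.63 at day 1 and 2.05 to 5.81 at day 7. Between day 7 and day 1 the ranges were -1.02 to 1.19 for CCL2, -1.47 to 0.86 for CCL20, -0.25 to 1.13 for CXCL3, -0.65 to 2.10 for CXCL5 and -0.45 to 0.52 for CXCL16. Counting error limits the lowest values most, such as CXCL3 in attached HCC4006, which rests on 1 count.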
